A study of Homo sapiens with 12 samples.

Results

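HBEGF and the genes of the EGF receptor system were followed in 2 rhabdomyosarcoma cell lines in which the histone demethylase KDM3A had been depleted. The 8 genes, of 65975 listed in the expression table, were chosen by name: the ligand genes HBEGF, AREG, EREG, TGFA and NRG1 and the receptor genes EGFR, ERBB2 and ERBB3. HBEGF was selected on its own values in these libraries, because its change with KDM3A-sh2 differed between the lines, so its levels and differences are given as a description with no test. RD represents fusion-negative disease (FN-RMS) and Rh30 fusion-positive disease (FP-RMS). Cells of each line were transduced with lentivirus carrying either a control shRNA (Scramble) or a KDM3A-targeting shRNA (KDM3A-sh2) and selected with puromycin, and 3 libraries of polyA RNA were sequenced in each of the 4 groups. RD cells were grown in DMEM and Rh30 cells in RPMI, both with fetal bovine serum, so line and medium cannot be told apart. The study states that RD carries an activating Ras mutation, and its part in the differences between the lines was not tested. Each subtype was represented by 1 line and the knockdown by 1 shRNA. Whether the replicate libraries were grown as separate cultures is not given in the sources used here, and p-values therefore cover only their spread, which may be technical. The labels of all 3 Rh30 Scramble libraries end in 1, though their titles number them as replicates 1 to 3. In each other group the labels end in 1 to 3.

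Ligands of the EGF family are made as membrane-anchored precursors, and proteases of the ADAM family release their active part from the cell surface. HBEGF, TGFA, AREG and EREG encode ligands of EGFR, while NRG1 encodes a neuregulin that binds ERBB3 and ERBB4. The receptors work as pairs: ERBB2 has no known ligand of its own, ERBB3 has little kinase activity, and active pairs signal through RAS and ERK and through PI3K and AKT. Rhabdomyosarcoma is a soft tissue sarcoma whose cells express muscle regulators such as MYOD1 and MYOG.

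Expression was given as FPKM, fragment numbers scaled to exon length and to the size of the library, which permits comparison between genes per unit of length. Summed FPKM ran from 1198300 to 1379197 per library, and depth relative to the median library, estimated from the spacing of the lowest values, ran from 0.864 in an RD KDM3A-sh2 library to 1.155 in an RD Scramble library. Of 5 muscle markers, 4 averaged 1 FPKM or more in every group, MYF5 being the exception, and their sum ran from 1112 to 2337 FPKM. In Rh30 this sum was 1748 to 1956 FPKM with the control shRNA and 2309 to 2337 FPKM with KDM3A-sh2, without overlap, and MYOG (0.56 on the log2(FPKM + 1) scale, limma adjusted p = 0.0004) and MYOD1 (0.28, adjusted p = 0.0222) rose there. In RD the sum was 1112 to 1279 FPKM and 1222 to 1312 FPKM, which overlapped, while MYH3 fell from 105.9 ± 10.5 to 58.8 ± 0.677 FPKM (-0.83, limma adjusted p = 0.000196). MYOD1 (-0.24) and MYOG (-0.14) also fell in RD, and DES rose (0.23). The part of these markers in the results was not tested. Summed blood markers reached 1.05 FPKM and summed endothelial markers 1.83 FPKM. Epithelial markers summed to between 8.91 and 47.9 FPKM, of which KRT18 made up most in RD. In Rh30, EPCAM had 4.63 ± 0.463 FPKM under Scramble and 6.03 ± 1.37 FPKM under KDM3A-sh2. KRT18 had 4.66 ± 0.323 and 3.49 ± 0.217 FPKM there. EPCAM was at or under 0.689 FPKM in RD, and KRT14 reached 1.17 FPKM in Rh30 and was at 0 in RD. KRT5 was at or under 0.122 FPKM and CDH1 at or under 0.0825 FPKM in every library. KDM3A itself (chromosome 2 of GRCh38, 86440647 to 86492716) had 33.5 ± 2.50 FPKM under Scramble and 12.2 ± 1.09 FPKM under KDM3A-sh2 in RD (SD, n = 3). Its Rh30 means were 29.7 ± 2.14 and 14.1 ± 1.15 FPKM, so it fell in both lines, with limma adjusted p-values of 5e-05 and 0.000348. The level left was 36.3% of Scramble in RD and 47.6% in Rh30, so the drop was larger in RD. The Rh30 change minus the RD change was 0.37 on the log2(FPKM + 1) scale (SE 0.12, limma adjusted p = 0.0388). Whether this unequal depletion had a part in the differences between the lines was not tested.

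HBEGF (ENSG00000113070) lies on the minus strand of chromosome 5, from 140332843 to 140346631. The RefSeq promoter window is shown because HBEGF is the gene the comparison of the lines turns on. It covers 250 bases before to 50 after the transcript start, chr5:140346554-140346853 of GRCh38.p14, and is printed on the minus strand with every GGGCGG and its reverse complement, the core of the GC box bound by SP1, in capitals.
HBEGF promoter: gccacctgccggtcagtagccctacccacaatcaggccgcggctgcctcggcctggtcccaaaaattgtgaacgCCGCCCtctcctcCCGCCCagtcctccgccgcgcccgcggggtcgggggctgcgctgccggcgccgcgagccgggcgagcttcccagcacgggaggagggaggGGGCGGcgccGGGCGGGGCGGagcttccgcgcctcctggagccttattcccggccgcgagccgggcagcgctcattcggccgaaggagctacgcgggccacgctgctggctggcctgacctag
The window holds 5 matches of GGGCGG on either strand, of which the last pair overlaps by 1 base, and 45% of 35116 RefSeq promoter windows of this length hold at least 1. The ETS-type letters GGAAGT were not found in it (present in 22.8% of windows), nor were the AP-1 word TGANTCA (7.71%) and the TATA box word TATAAA (11.5%), while the E-box CANNTG, searched on both strands like the others, occurred at 1 place (68.7%). Each factor was searched by this 1 word only, so other spellings of its sites may be present. These matches describe the letters of the window and say nothing of binding.

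In RD cells HBEGF was higher with KDM3A-sh2, and in Rh30 cells it was lower. The 3 RD Scramble libraries had 22.0, 21.6 and 21.2 FPKM, and the 3 RD KDM3A-sh2 libraries had 48.3, 48.9 and 53.4 FPKM. The means were 21.6 ± 0.401 and 50.2 ± 2.76 FPKM (SD, n = 3), a ratio of 2.32 and a difference of 1.18 on the log2(FPKM + 1) scale. The groups did not overlap, and every KDM3A-sh2 library lay above every Scramble library. In Rh30 the Scramble libraries had 10.3, 11.2 and 10.5 FPKM and the KDM3A-sh2 libraries 5.33, 5.58 and 5.08 FPKM. The means of 10.7 ± 0.506 and 5.33 ± 0.246 FPKM differed by -0.88 on the log2(FPKM + 1) scale, Scramble being 2.00 times KDM3A-sh2. Again the groups did not overlap. RD had 2.02 times the HBEGF of Rh30 with Scramble and 9.42 times with KDM3A-sh2, so the highest group of the 4 was RD KDM3A-sh2 and the lowest Rh30 KDM3A-sh2, and no neighbours in that order overlapped. The Rh30 difference minus the RD difference was -2.06 on the log2(FPKM + 1) scale. In libraries from whole cultures, fewer cells that express a gene and less of its RNA per cell cannot be told apart.

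**Figure D1:**
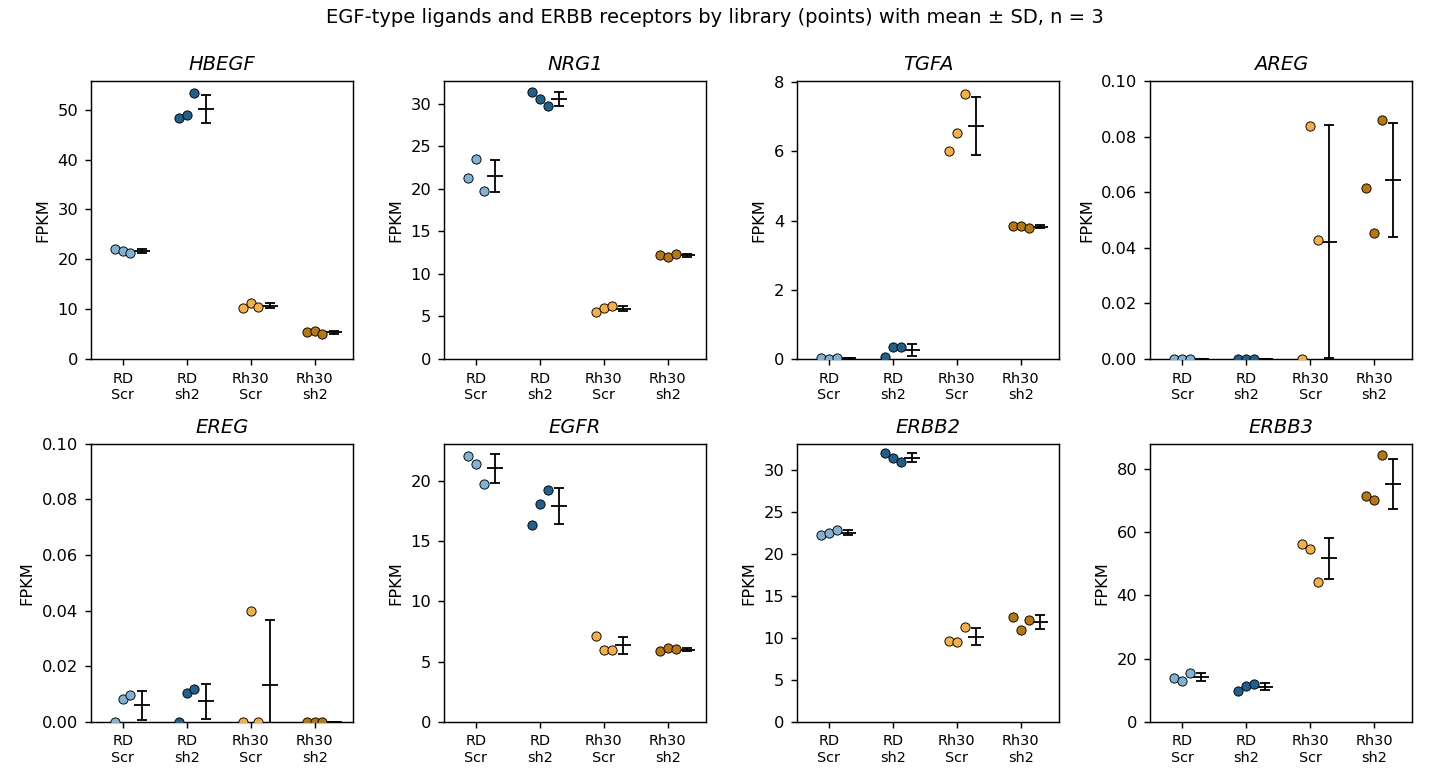
FPKM of the 8 genes in each library (points) of the 4 groups, with the mean and SD of 3 libraries beside them; Scr is Scramble, sh2 is KDM3A-sh2, and each panel has its own linear axis from 0. HBEGF was highest in RD KDM3A-sh2 (50.2 FPKM) and lowest in Rh30 KDM3A-sh2 (5.33 FPKM), while AREG and EREG stayed under 0.1 FPKM everywhere.

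How often other genes showed opposite directions was counted in the same fits. Of 15969 genes tested in both lines, HBEGF left out, 318 (1.99%) passed the test as higher in RD and lower in Rh30 and 252 the other way round. With a limit of 0.5 on the log2 scale in both lines, 31 genes (0.194%) were higher in RD and lower in Rh30 and 10 the reverse. The genes whose log2(FPKM + 1) followed HBEGF most closely over the 12 libraries, among 11016 whose overall mean reached 10 FPKM, were P4HA1, a collagen prolyl hydroxylase subunit (Pearson r = 0.998), CLSTN1 (0.994), SPRY2, a Sprouty inhibitor of receptor signalling (0.994), FJX1 (0.993) and the stress-response transcription factor ATF4 (0.992). P4HA1 had 71.1 ± 2.67 FPKM under Scramble and 111.8 ± 0.608 FPKM under KDM3A-sh2 in RD, and 52.6 ± 0.858 and 38.5 ± 0.986 FPKM in Rh30. SPRY2 had 215.2 ± 3.29 and 258.4 ± 3.76 FPKM in RD, and 176.7 ± 2.56 and 156.8 ± 4.03 FPKM in Rh30. The libraries form 4 groups and were ranked on likeness, so these correlations describe the group means and carry no test. Over the same libraries r with HBEGF was -0.946 for ERBB3, 0.905 for ERBB2, 0.846 for EGFR and 0.755 for NRG1. Among the 11016 genes ERBB2 ranked 1238, EGFR 2551, NRG1 3559 and ERBB3 10678, from the highest r down. These values include the difference in level between the lines.

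The other genes were tested with limma, together with every gene that averaged 1 FPKM or more over the libraries compared. In RD, 5 of the 8 genes passed this limit, HBEGF among them, and in Rh30 6 of 8. In RD, 2 of the 4 tested genes other than HBEGF rose with KDM3A-sh2 (NRG1 and ERBB2) and 1 fell (ERBB3), where 21.6% of 17988 genes rose and 19.5% fell. In Rh30, 2 of 5 rose (NRG1 and ERBB3) and 1 fell (TGFA), where 15.3% of 17803 genes rose and 13.2% fell. TGFA entered the fits across both lines only through its Rh30 level and is left out of the counts between the lines. For 2 of the other 4 genes (NRG1 and ERBB3) the Rh30 and RD changes differed from each other, beside 27.8% of 18517 genes. With Scramble alone, these 4 genes (NRG1, EGFR, ERBB2 and ERBB3) differed between Rh30 and RD, beside 74.5% of 18357 genes. For a single gene with 3 libraries against 3, the smallest two-sided exact permutation p is 0.1, so the calls rest on the spread that limma shares across genes.

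**Figure D2:**
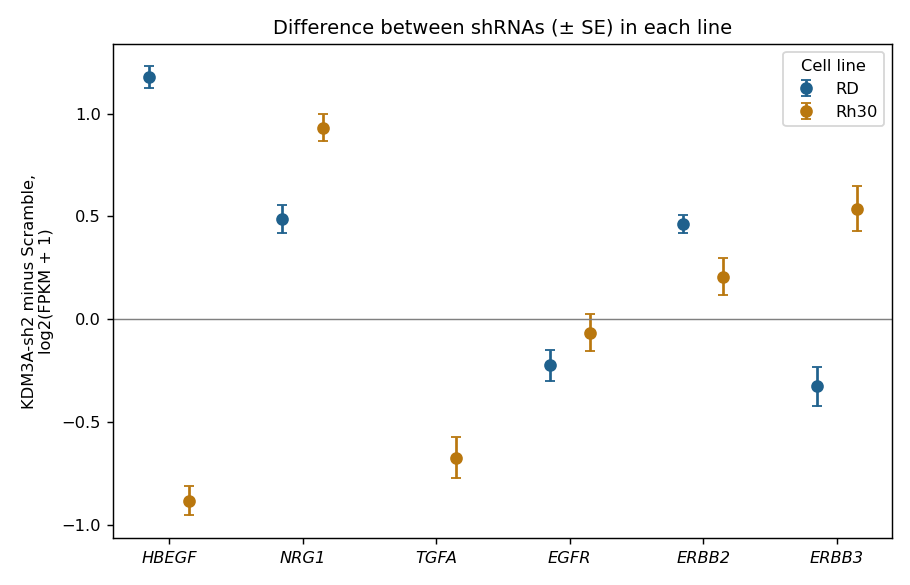
Difference between KDM3A-sh2 and Scramble on the log2(FPKM + 1) scale, with its SE, in RD and in Rh30 for the members that averaged 1 FPKM or more; TGFA was under this limit in RD. HBEGF (1.18 and -0.88) and ERBB3 (-0.33 and 0.54) lie on opposite sides of 0 in the lines, NRG1 (0.49 and 0.93) above 0 in both.

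Of the ligands, NRG1 (chromosome 8, 31639386 to 32767959) rose in both lines. RD Scramble libraries had 21.3, 23.5 and 19.8 FPKM and RD KDM3A-sh2 libraries 31.4, 30.5 and 29.7 FPKM, without overlap. The rise was 0.49 on the log2(FPKM + 1) scale (SE 0.07, limma adjusted p = 0.00164), a ratio of 1.42. In Rh30 the libraries had 5.57, 5.98 and 6.17 FPKM under Scramble and 12.2, 12.0 and 12.3 FPKM under KDM3A-sh2, again without overlap. There the rise was 0.93 (SE 0.07, limma adjusted p = 0.000264), a ratio of 2.06. The rise was thus larger in Rh30 on the log2 scale, by 0.44 (SE 0.09, limma adjusted p = 0.00392). On unlogged FPKM the sign of that difference turned, since RD gained more FPKM than Rh30 (Rh30 minus RD -2.75 FPKM, adjusted p = 0.126 by analysis of variance). With Scramble, NRG1 was lower in Rh30 than in RD by 1.70 on the log2 scale (value -1.70, SE 0.08, limma adjusted p = 1.77e-06). Overlapping transcripts inside the gene reached 13.3 FPKM (RNA5SP263) and 8.16 FPKM (NRG1-IT1), both on the same strand, and how fragments were shared among them is not given in the sources used here.

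TGFA (chromosome 2, 70447280 to 70554193) was expressed at above 1 FPKM only in Rh30, where it fell. The Rh30 Scramble libraries had 6.01, 6.52 and 7.65 FPKM and the KDM3A-sh2 libraries 3.85, 3.85 and 3.79 FPKM. All KDM3A-sh2 values lay below all Scramble values, and the drop was -0.67 on the log2(FPKM + 1) scale (SE 0.10, limma adjusted p = 0.00396), Scramble being 1.76 times KDM3A-sh2. In RD the values were 0.0229, 0.0101 and 0.0234 FPKM under Scramble and 0.0486, 0.361 and 0.334 FPKM under KDM3A-sh2. These stayed under the limit of 1 FPKM and were not tested within RD, and no fold is given for them. TGFA thus entered the fits across both lines only through its Rh30 level, and no test of a difference between the lines is given for it.

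AREG and EREG, neighbouring genes on chromosome 4 (74445134 to 74455009 and 74365143 to 74388751) that encode amphiregulin and epiregulin, were near 0. AREG was listed at 0 in all 6 RD libraries and reached 0.0861 FPKM in Rh30, and EREG reached 0.0400 FPKM in 1 Rh30 Scramble library. Neither was tested. Of 7 further ligand and receptor genes (EGF, BTC, EPGN, NRG2, NRG3, NRG4 and ERBB4), none passed the limit of 1 FPKM in RD. In Rh30 only ERBB4, a neuregulin receptor, passed it. ERBB4 had 0.717 ± 0.183 FPKM under Scramble and 1.59 ± 0.330 FPKM under KDM3A-sh2. Its mean passed the limit only through the KDM3A-sh2 libraries, so no test is given for it.

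Among the receptors, ERBB3 (chromosome 12, 56076799 to 56103505) moved in opposite directions in the lines, the reverse of HBEGF. In RD the Scramble libraries had 13.9, 13.0 and 15.5 FPKM and the KDM3A-sh2 libraries 9.85, 11.3 and 12.1 FPKM. The groups did not overlap and the drop was -0.33 on the log2(FPKM + 1) scale (SE 0.10, limma adjusted p = 0.0316), a call that was lost in 7 of 15 alternatives. In Rh30 the Scramble libraries had 56.3, 54.5 and 44.2 FPKM and the KDM3A-sh2 libraries 71.3, 70.1 and 84.3 FPKM, without overlap. The rise there was 0.54 (SE 0.11, limma adjusted p = 0.0131), a ratio of 1.46, and it missed the threshold by analysis of variance on unlogged FPKM (adjusted p = 0.0653). The difference between the changes was 0.86 (SE 0.15, limma adjusted p = 0.002). Rh30 had 3.65 times the ERBB3 of RD with Scramble (1.79 on the log2 scale, SE 0.11, limma adjusted p = 5.19e-06) and 6.78 times with KDM3A-sh2.

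ERBB2 (chromosome 17, 39687914 to 39730426) rose in RD. Its values were 22.2, 22.5 and 22.9 FPKM under Scramble and 32.0, 31.4 and 31.0 FPKM under KDM3A-sh2, a ratio of 1.40 and 0.46 on the log2(FPKM + 1) scale (SE 0.04, limma adjusted p = 0.000269). In Rh30 they were 9.62, 9.49 and 11.3 FPKM under Scramble and 12.5, 10.9 and 12.1 FPKM under KDM3A-sh2, and the groups overlapped. The difference of 0.21 (95% interval -0.003 to 0.42) did not pass in Rh30 (limma adjusted p = 0.125), although it did in the fit of all 12 libraries with a shared spread (limma adjusted p = 0.0374). The changes in the lines differed by -0.26 (95% interval -0.47 to -0.04, limma adjusted p = 0.0717), which passed on the TPM scale (-0.31, adjusted p = 0.035) and by analysis of variance on unlogged FPKM (-7.22 FPKM, adjusted p = 0.000418). With Scramble, ERBB2 was -1.08 on the log2 scale in Rh30 relative to RD (SE 0.08, limma adjusted p = 1.32e-05). On the other strand ERBB2 overlaps MIEN1, which reached 73.6 FPKM, and PGAP3, which reached 6.27 FPKM; the libraries were directional, but whether the counting used the strand is not given in the sources used here, so reads of these genes may not have been told apart.

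EGFR (chromosome 7, 55019021 to 55211628), the receptor that HBEGF and TGFA bind, showed the smallest differences between the shRNAs among the members tested in both lines. In RD it had 22.1, 21.4 and 19.7 FPKM under Scramble and 16.4, 18.1 and 19.3 FPKM under KDM3A-sh2. The groups did not overlap, but the difference of -0.22 on the log2(FPKM + 1) scale (95% interval -0.40 to -0.04) was just short of the threshold (limma adjusted p = 0.0523) and passed it in 5 of 15 alternatives. In Rh30 the values were 7.16, 5.93 and 5.97 FPKM under Scramble and 5.90, 6.09 and 6.01 FPKM under KDM3A-sh2, and the groups overlapped. That difference of -0.07 (95% interval -0.28 to 0.15, limma adjusted p = 0.62) turned to 0.011 without Rh30 Scramble replicate 1. The changes in the lines did not pass the test of their difference (0.16, 95% interval -0.09 to 0.41, limma adjusted p = 0.342). With Scramble, EGFR was -1.59 on the log2 scale in Rh30 relative to RD (SE 0.09, limma adjusted p = 3.66e-06).

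Per unit of exon length, the mixture of receptor RNA differed more between the lines than between the shRNAs. Summed over EGFR, ERBB2, ERBB3 and ERBB4, RD libraries had 57.0 to 58.3 FPKM under Scramble and 58.5 to 62.7 FPKM under KDM3A-sh2. Rh30 libraries had 62.4 to 73.6 FPKM under Scramble and 89.1 to 104.0 FPKM under KDM3A-sh2, where the groups did not overlap. ERBB3 made up 70.9% to 77.1% of the sum in Rh30 Scramble and 78.4% to 81.0% in Rh30 KDM3A-sh2, against 22.9% to 26.7% and 16.8% to 19.3% in RD. In RD the share of ERBB2 went from 38.1% to 39.5% with Scramble to 49.4% to 54.7% with KDM3A-sh2, while that of EGFR went from 33.9% to 37.9% to 28.0% to 30.8%.

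The sum of 11 ligand genes in RD was 41.9 to 46.0 FPKM under Scramble and 80.8 to 84.6 FPKM under KDM3A-sh2, and nearly all of it was HBEGF and NRG1. HBEGF was 46.9% to 50.7% of the RD sum with Scramble and 59.6% to 63.1% with KDM3A-sh2. In Rh30 the sum was 23.2 to 26.1 FPKM under Scramble and 22.6 to 23.0 FPKM under KDM3A-sh2, a small gap beside the shift in its make-up. HBEGF went from between 40.3% and 45.4% to between 22.1% and 24.7% of it, TGFA from between 25.9% and 29.4% to between 16.5% and 17.1%, and NRG1 from between 23.7% and 24.2% to between 53.2% and 54.0%. HBEGF over EGFR, FPKM over FPKM, was 0.998 to 1.08 in RD Scramble, 2.70 to 2.95 in RD KDM3A-sh2, 1.44 to 1.90 in Rh30 Scramble and 0.846 to 0.916 in Rh30 KDM3A-sh2. These shares contain HBEGF and are descriptions.

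**Figure D3:**
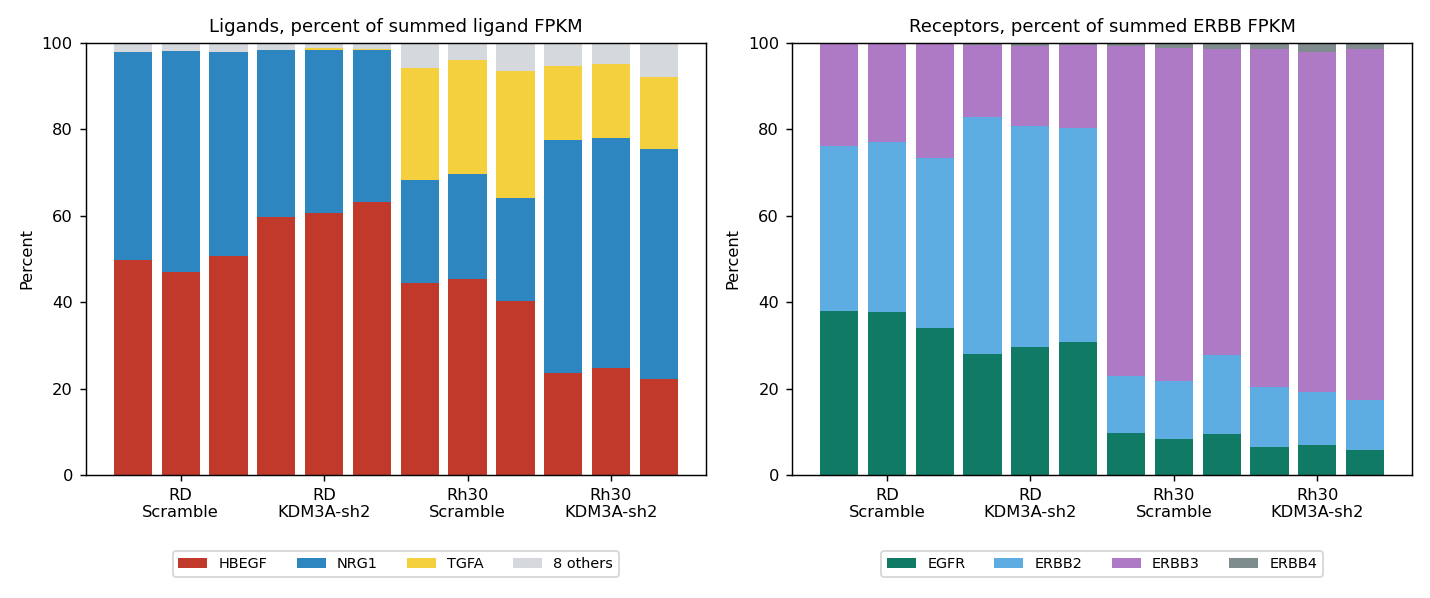
Stacked bars, 1 per library, of the percent of summed FPKM that each gene held among 11 ligand genes (left) and 4 ERBB receptor genes (right); the grey ligand part is the other 8. NRG1 took 53.2% to 54.0% of the ligand sum in Rh30 KDM3A-sh2 against 23.7% to 24.2% in Rh30 Scramble, and ERBB3 took at least 70.9% of the receptor sum in every Rh30 library.

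The rest of the pathway was counted over 80 genes in lists by role, of which 70 were tested in RD and 68 in Rh30. In RD, 26 rose and 16 fell, and in Rh30, 7 rose and 29 fell, beside 21.6% of all genes tested that rose and 19.5% that fell in RD, and 15.3% and 13.2% in Rh30. The Rh30 counts include ERBB4 among the rises and SPRED3 among the drops, and each of these averaged 1 FPKM or more only in the group where it was high. The median difference of the listed genes was 0.02 in RD and -0.13 in Rh30, against medians of 0.007 and 0.03 over all genes tested. The lists were chosen with earlier results of these data known, so these counts are descriptions.

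Genes for ligand shedding and trafficking rose in 9 and fell in 2 of 14 tested in RD, and rose in 2 and fell in 5 of 11 tested in Rh30 (all genes tested: 21.6% and 19.5% in RD, 15.3% and 13.2% in Rh30). FURIN, a proprotein convertase, rose in both lines, with 28.6 ± 2.07 and 55.7 ± 2.73 FPKM in RD and 14.5 ± 1.11 and 23.4 ± 2.53 FPKM in Rh30 (log2 differences 0.94 and 0.65, limma adjusted p = 9.03e-05 and 0.00355). RHBDF2, an inactive rhomboid protein that carries the shedding enzyme ADAM17 to the cell surface, also rose in both (0.75 and 0.51). ADAM9 and ADAM10, both membrane proteases, rose slightly in RD (0.15 and 0.17) and fell in Rh30 (-0.48 and -0.36). ADAM17, the main sheddase of TGFA and HBEGF, rose from 61.1 ± 2.89 to 75.1 ± 1.00 FPKM in RD (0.29, limma adjusted p = 0.00222), and had 20.8 ± 0.366 and 19.9 ± 0.795 FPKM in Rh30 (-0.06, limma adjusted p = 0.395). ADAM15 fell in RD (-0.55) and ADAM19 in Rh30 (-0.48). ADAM15 had -0.11 in Rh30 (limma adjusted p = 0.416) and ADAM19 -0.03 in RD (limma adjusted p = 0.615). For ADAM15 the changes in the lines did not pass the test of their difference (0.44, limma adjusted p = 0.0717). NRD1, which encodes nardilysin, an enhancer of HBEGF shedding, fell in both lines (-0.17 in RD and -0.15 in Rh30). ADAM10 and ADAM17 were named for their role after the values were seen.

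Of 18 genes that restrain the receptors or ERK, 5 rose and 5 fell in RD, and 1 rose and 11 fell in Rh30, SPRED3 among them (all genes tested: 21.6% and 19.5% in RD, 15.3% and 13.2% in Rh30). SPRY4, a Sprouty protein, rose in RD, with 56.3 ± 1.76 and 89.4 ± 1.78 FPKM, and fell in Rh30, with 25.1 ± 1.27 and 13.4 ± 0.941 FPKM (log2 differences 0.66 and -0.86, limma adjusted p = 5.08e-05 and 0.000395). DUSP6, a phosphatase that inactivates ERK, fell from 67.5 ± 1.40 to 35.6 ± 2.98 FPKM in Rh30 (-0.91, limma adjusted p = 0.000288), and had 430.1 ± 8.91 and 433.8 ± 7.51 FPKM in RD (0.01, limma adjusted p = 0.775). SPRED3, an inhibitor of RAS signalling, rose in RD (0.41). In Rh30 it had 3.73 ± 0.693 FPKM under Scramble and 0.709 ± 0.173 FPKM under KDM3A-sh2, and its mean passed the limit there only through the Scramble libraries. RNF41, a ubiquitin ligase known to act on ERBB3, rose in RD (0.77) and had -0.04 in Rh30 (limma adjusted p = 0.702). CBLB, a ubiquitin ligase for EGFR, rose in Rh30 (0.23) and had 0.16 in RD (limma adjusted p = 0.0737). For CBLB the changes in the lines did not pass the test of their difference (0.08, limma adjusted p = 0.553). DUSP5, a nuclear ERK phosphatase, fell in both lines (-0.47 in RD and -0.62 in Rh30), as did ERRFI1, which encodes an EGFR inhibitor (-0.26 and -0.39).

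In the signal transduction core, 8 of 24 genes rose and 3 fell in RD, and 1 rose and 5 fell in Rh30 (all genes tested: 21.6% and 19.5% in RD, 15.3% and 13.2% in Rh30). MAPK3, which encodes an ERK kinase, rose in both lines, by log2 differences of 0.49 in RD and 0.19 in Rh30. MAP2K1, the kinase above ERK, fell in Rh30 from 78.1 ± 2.28 to 49.2 ± 1.30 FPKM (-0.66, limma adjusted p = 0.000195) and less so in RD (-0.19, limma adjusted p = 0.00549). In RD, PTPN11, which encodes the phosphatase SHP2, rose (0.42) and HRAS fell (-0.30). In Rh30, PTPN11 had 0.008 (limma adjusted p = 0.897) and HRAS -0.06 (limma adjusted p = 0.451). For HRAS the changes in the lines did not pass the test of their difference (0.24, limma adjusted p = 0.0553).

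Among genes known to respond to ERK, 4 of 14 rose and 6 fell in RD, and 2 of 14 rose and 8 fell in Rh30 (all genes tested: 21.6% and 19.5% in RD, 15.3% and 13.2% in Rh30). CCND1, which encodes cyclin D1, fell in Rh30 from 134.1 ± 4.20 to 54.1 ± 2.90 FPKM (-1.29, limma adjusted p = 5.41e-05) and had 334.9 ± 12.5 and 316.9 ± 13.3 FPKM in RD (-0.08, limma adjusted p = 0.194). FOSL1, an AP-1 subunit, fell in both lines (-0.45 in RD and -1.26 in Rh30). FOS, JUNB, JUN and MYC did not follow a common direction. FOS fell in RD (-1.01) and had -0.34 in Rh30 (limma adjusted p = 0.192), and JUNB fell in both lines (-0.56 and -0.30). JUN rose in Rh30 (0.34) with -0.02 in RD (limma adjusted p = 0.778), and MYC fell in RD (-0.11) and rose in Rh30 (0.32). ETV4, an ETS factor, rose in RD (0.41) and fell in Rh30 (-1.03), and PHLDA1 did the same with smaller values (0.25 and -0.27).

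Of 66 listed genes tested in both lines, 11 (16.7%) passed as higher in RD and lower in Rh30, the directions of HBEGF, and 1 (MYC) as lower in RD and higher in Rh30, beside 1.99% of all genes in the first pattern. The 11 were ADAM9, ADAM10, SPRY2, SPRY4, SPRED3, SHC1, STAT3, IER3, PHLDA1, ETV4 and ETV5. These genes were picked for opposite calls in the same libraries, so a test of the difference between the lines adds no support and is not given. Their RD differences ran from 0.15 to 0.66 and their Rh30 differences from -1.46 to -0.17 on the log2(FPKM + 1) scale. SPRED3, which holds the lowest Rh30 value, passed the limit in Rh30 only through its Scramble libraries. This count was made after the values were seen.

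**Figure D4:**
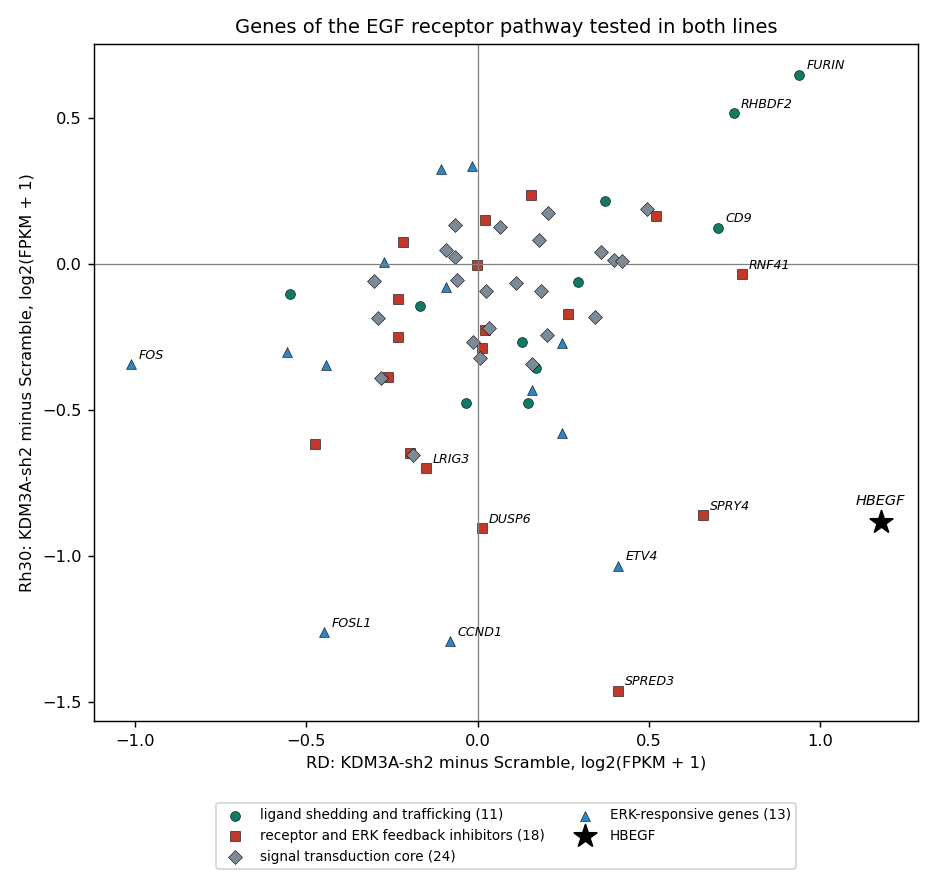
Difference between KDM3A-sh2 and Scramble on the log2(FPKM + 1) scale in RD (x axis) and in Rh30 (y axis) for the 66 listed genes tested in both lines, by role, with HBEGF as a star. HBEGF (1.18, -0.88), SPRY4 (0.66, -0.86), ETV4 (0.41, -1.03) and SPRED3 (0.41, -1.46) lie in the lower right part, FURIN (0.94, 0.65) in the upper right.

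Earlier results of these data showed that the 7-base word TGAAGCA is common in the 3' UTRs of genes that fell with KDM3A-sh2, so its places in the EGF receptor genes are shown, each with 11 bases on either side and the word in capitals.
TGFA: aatgccacaccTGAAGCActtggatctgt
EGFR: tcttcaaactgTGAAGCAtttacagaaac
The TGFA place is in exon 6, on the minus strand of chromosome 2 from 70449104 to 70449132 (base 1738 of a 3' UTR of 3579 bases), and the EGFR place is in exon 28, on the plus strand of chromosome 7 from 55205810 to 55205838 (base 204 of 6011), both in GRCh38 with GENCODE 29 transcripts. The longest annotated 3' UTRs of HBEGF (1456 bases), AREG, EREG, NRG1, ERBB2 and ERBB3 hold no such word, and that of HBEGF holds neither of its 6-base parts. Each 3' UTR was the longest after any annotated coding sequence, whatever the type of transcript. It may therefore not be that of a gene's main transcript, and for ERBB2 it had 4091 bases. The word was present in 32% of 3' UTRs of like length for TGFA and in 48.7% for EGFR. Over all tested genes with a 3' UTR, 19.3% (RD) and 19.5% (Rh30) held it. Genes with the word fell in 30.4% and those without it in 20.5% in RD, and in 26.4% and 13.8% in Rh30, with median differences of -0.06 with and 0.04 without it in both lines. The word was taken from these same data, so the higher shares with it are no independent support. They were not matched for 3' UTR length. The part of this word in the TGFA and EGFR values was not tested, and only 1 KDM3A-targeting shRNA was sequenced.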

How the data were processed

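RNA-seq was analysed in 12 libraries, 3 in each of 4 groups set by the sample labels. The authors aligned reads to GRCh38 with GSNAP, handled them with SAMtools and deposited FPKM from Cufflinks, without a log. FPKM hold no read counts, so count models were not used and no counting interval is given. The annotation release and the strand setting are not given in the sources used here. Of 65975 gene identifiers, 117 had repeated entries, of which the one with the highest mean was used, and 17 genes held the placeholder 999999999 in at least 1 library (left out of fits that include it). GENCODE 29 held 86.3% of the identifiers and gave positions and 3' UTRs.

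Log2(FPKM + 1) values of genes that averaged 1 FPKM or more were tested two-sided with lmFit and eBayes (trend on) of limma 3.58.1, under R 4.3.3, with Benjamini-Hochberg adjustment over all genes tested and a threshold of 0.05, in place of the study's analysis of variance on FPKM, which was an alternative. The comparisons were KDM3A-sh2 against Scramble in each line (6 libraries), their difference (12 libraries) and Rh30 Scramble against RD Scramble. Scripts were tested on simulated data. The members, gene lists and tests were chosen with earlier results of these data known. Genes named were KDM3A, the 8 members, for each list and line up to 2 called genes with the largest rise and 2 with the largest drop, and the 5 genes most like HBEGF; others are said to have been named after their values were seen. One item that this rule selects is left out of the text. Alternatives were a pseudocount of 0.1, no filter, a filter of 10 FPKM, the TPM scale, analysis of variance, limma without a trend, library weights, a replicate block, all 12 libraries in 1 fit and leaving out each library. Tables and figures were made with Python 3.11.15, pandas 2.3.3 and matplotlib 3.10.9. Promoter sequences are from RefSeq (GRCh38.p14); 6 of the 8 genes were matched there.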

Additional observations from a re-analysis of the deposited data

Results flagged for a closer look

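Besides HBEGF, whose difference between the lines led to its choice, 3 genes were flagged for differing Rh30 and RD changes. NRG1 and ERBB3 passed the limma test of that difference. For TGFA the Rh30 change minus the RD change was -0.96 on the log2(FPKM + 1) scale, with RD levels under 1 FPKM in every library. TGFA entered the fit across both lines only through its Rh30 level, so no test is given for it. For NRG1 it was 0.44, both lines having risen, and on unlogged FPKM its sign turned. For ERBB3 it was 0.86, with a drop in RD and a rise in Rh30.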

How the results depend on the processing

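Of 370 recomputed differences of the members, 349 kept their direction and their side of the threshold or, for HBEGF, stayed within the spread between replicates. The 349 include 19 for TGFA in the difference between the lines and 14 for TGFA between the Scramble groups. TGFA entered those fits only through its Rh30 level, and HBEGF was chosen on its own values, so the share of 349 is a description. Of the 150 recomputed counts of genes called, 148 stayed within 1.5 times. The 150 include counts among the members other than HBEGF, where 2 or 4 in place of 3 lies within that factor. In RD the count of these members called was 3, and it ran from 2 to 4 when 1 library was left out. Genes called in Rh30 numbered 5066, and between 3215 and 4071 when 1 library was left out, the lowest being without Rh30 KDM3A-sh2 replicate 1. On the TPM scale 0 in place of 1 of the other ligand and receptor genes was called in Rh30, since ERBB4 was then under the limit of 1. EGFR in Rh30 ran from -0.11 to 0.011 on the log2 scale when 1 library was left out, reversed without Rh30 Scramble replicate 1. The NRG1 difference between the lines reversed on unlogged FPKM (-2.75 FPKM), where a gain is measured in FPKM and not as a ratio. The ERBB3 drop in RD missed the threshold without RD Scramble replicate 1 (adjusted p = 0.0693) or 3 (0.0911), without RD KDM3A-sh2 replicate 1 (0.084) or 2 (0.0653), with no filter (0.075), on the TPM scale (0.0512) and by analysis of variance (0.0853), and in Rh30 its rise missed it by analysis of variance (0.0653). EGFR in RD passed without RD Scramble replicate 3 (0.049) or RD KDM3A-sh2 replicate 3 (0.0378), with the 10 FPKM filter (0.0388), with library weights (0.0346) and with all 12 libraries in 1 fit (0.0448). The cause was not tested. HBEGF kept its direction in all alternatives run; with a pseudocount of 0.1 its differences were -0.99 in Rh30 and -2.20 between the lines. The TPM scale moved the median of all genes between the Scramble groups from -0.04 to -0.14. Same-numbered libraries did not deviate together (correlations -0.0744 to -0.00932), so the numbers do not pair them; with the replicate block, 6259 genes were called in RD in place of 7390 and 3421 in Rh30, no call among the members changed, and with 3 pairs per line no library correlated best with its own number.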
